A study of Mus musculus with 166 samples.

Results

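The Q175 mice of 2 months are the youngest animals of the longest CAG repeat in a Huntington's disease allelic series, and their cerebellum was compared with that of controls of the same age to find the genes that already differed. The group was taken from the sample titles and holds 8 of the 166 libraries of cerebellar poly(A) RNA in the series. The controls were 16 libraries of 2 months, 8 from WT and 8 from Q20 mice.

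Q175 mice carried 1 wild-type Htt allele and 1 knock-in allele with a human HTT exon of the CAG length in the name. Q20 mice carried a knock-in allele of another line, with a repeat in the normal human range. WT mice carried no knock-in allele and were littermates of the Q20 mice. The Q175, WT and Q20 groups of 2 months each held 4 females and 4 males on the C57BL/6 background. Animals of the same sex and genotype came from different litters. The Q175 allele arose by a spontaneous expansion of the repeat in the Q140 line. The labels give separate housing for the Q175 mice, while WT and Q20 mice shared theirs, so genotype, breeding line and housing cannot be told apart in any Q175 comparison below. Later ages were other animals: 8 Q175 and 8 WT mice of 6 months, and 8 Q175 mice with 8 WT and 8 Q20 mice of 10 months. The Q20 group of 10 months held more females (F1 to F5) than males (M1 to M3). At 6 months the Q20 libraries had another name format than those of Q175 and WT, so Q175 was compared with WT alone. The allelic series at 2 months also used 8 libraries each of heterozygous Q80, Q92, Q111 and Q140 mice. Each CAG length was a line of its own, so CAG length and line cannot be told apart along the series.

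Huntington's disease is caused by an expanded CAG repeat in the gene for huntingtin, a large scaffold protein present in all cells. Knock-in mice express the expanded repeat from the mouse gene's own promoter, and their transcript changes build up over months. The cerebellum is made up mostly of granule cells, which excite the Purkinje cells, the only output neurons of its cortex. Il20rb encodes a receptor subunit for the cytokines IL-19, IL-20 and IL-24 of the IL-10 family. Ncald encodes neurocalcin delta, a neuronal calcium sensor that moves to membranes when it binds calcium.

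Il20rb and Mcam, the gene of a cell adhesion molecule also known as CD146, were the 2 genes called lower in Q175 at this age with all libraries and also without the libraries of poor coverage. Both lie on chromosome 9, and their RefSeq promoter windows (250 bases before to 50 bases after the start, GRCm38.p6) are shown because these genes had the firmest differences of the comparison. Capitals mark the cAMP response element TGACGTCA and the GC box GGGCGG, searched on both strands, where CCGCCC is the GC box on the other strand and no marked motifs overlap. The Il20rb window is chr9:100486424-100486723 on the minus strand, and the Mcam window is chr9:44134408-44134707 on the plus strand. The Il20rb window lies wholly, and the Mcam window mostly, within the gene span given below. The starts used for the windows thus lie inside the genes as annotated there.
Il20rb: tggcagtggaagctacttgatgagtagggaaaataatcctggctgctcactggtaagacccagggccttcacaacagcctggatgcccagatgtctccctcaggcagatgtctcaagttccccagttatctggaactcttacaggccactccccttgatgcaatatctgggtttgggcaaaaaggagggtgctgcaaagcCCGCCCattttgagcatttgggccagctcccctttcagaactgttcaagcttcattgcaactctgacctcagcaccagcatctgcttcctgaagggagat
Mcam: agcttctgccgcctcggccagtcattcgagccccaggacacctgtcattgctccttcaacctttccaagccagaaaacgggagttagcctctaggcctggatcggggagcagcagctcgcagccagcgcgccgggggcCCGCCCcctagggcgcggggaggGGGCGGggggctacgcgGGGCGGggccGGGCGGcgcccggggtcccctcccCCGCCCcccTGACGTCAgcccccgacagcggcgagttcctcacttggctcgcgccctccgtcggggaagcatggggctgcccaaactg
The Il20rb window held 1 CpG, 1 GC box and 0 cAMP response elements, and the Mcam window held 29 CpG, 5 GC boxes and 1 cAMP response element. Over the 14778 promoter windows of genes tested at 2 months, the median was 19 CpG, 60.2% held a GC box and 2.86% a cAMP response element. Over all 32851 windows the shares were 35.7% and 1.79%. Of the 5 leading genes 2 had a window in the table, and the others are named only.

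The 24 libraries of 2 months held totals between 31617171 and 42463826 counts. In 5 of them Htt lay under 150 CPM (counts divided by the library total and scaled to a common total), namely Q175 F2 and F3 and WT F4, M1 and M2. The same libraries had a low length index, from -0.71 to -0.29, against -0.17 to 0.00 in the 19 libraries kept. For each gene, log2 CPM was taken as the deviation from the gene's median over the 166 libraries. The index is the slope of these deviations on log2 transcript length over 11674 genes. The library just under the limit was Q175 F2 with 127.9 CPM of Htt, and the one just above it was WT F2 with 195.3 CPM and a length index of -0.17. All 5 carried an L number of 5 to 8 in the library name, as did 3 other libraries, all of Q20, and the 16 libraries with L numbers of 1 to 4 had none under the limit. Granule and Purkinje cell markers were high in all 24 libraries, with 594.7 to 871.1 CPM of Gabra6 and 193.8 to 609.0 CPM of Pcp2. Ttr, the main transcript of the choroid plexus, ranged from 2.02 to 11370 CPM.

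**Figure D1:**
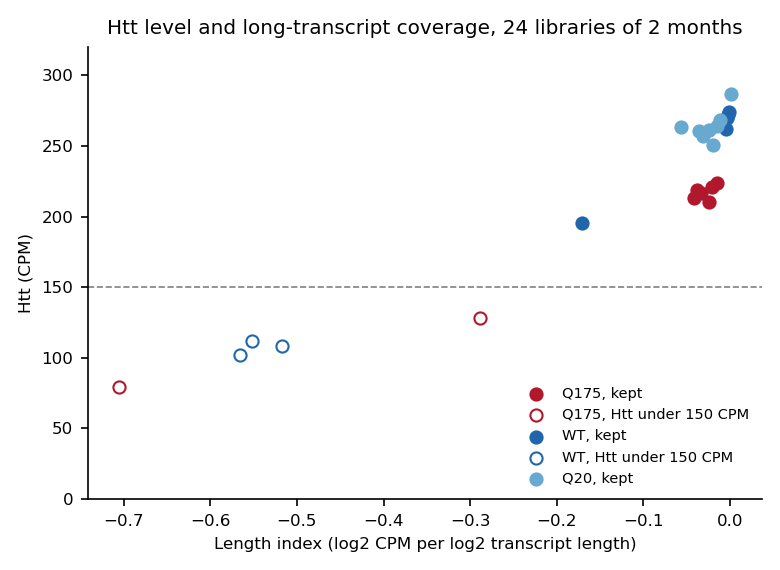
Htt in CPM (vertical axis) against the length index (horizontal axis) for 8 Q175, 8 WT and 8 Q20 libraries of 2 months, with the limit of 150 CPM as a dashed line and libraries under it as open circles. Of the 5 open circles 2 are Q175 and 3 are WT, and the 6 Q175 libraries kept lie between 210.4 and 224.0 CPM.

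Htt itself lies at chr5:34761740-34912534 on the plus strand. In the libraries kept it had a lowest, median and highest level of 210.4, 217.9 and 224.0 CPM in Q175 (n = 6), against 195.3, 263.6 and 286.9 CPM in the controls (n = 13). All 6 Q175 libraries lay under every control library but WT F2. Since Htt chose the libraries, it has no test here. At the later ages, where no library of these groups was under the limit, the log2 difference of Q175 from its controls was -0.24 ± 0.03 (SE) at 6 months and -0.25 ± 0.04 at 10 months (adjusted p = 4.45e-06 and 0.000207, edgeR's quasi-likelihood test).

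With all 24 libraries, 2 of 15503 genes (0.0129%) were called in Q175 against controls at an adjusted p under 0.05, both lower in Q175. An unadjusted p under 0.05 was found for 404 genes (2.61%), with 0.677% of all genes tested higher and 1.93% lower in Q175. Without the 5 libraries, 4 genes (0.0258%) were called, 2 higher and 2 lower in Q175. The number with an unadjusted p under 0.05 was then 1129 (7.28%), of which 510 (3.29%) were higher and 619 (3.99%) lower in Q175. The 4 genes were Il20rb and Mcam, lower in Q175, and Cd70 and Phlda1, higher in Q175. Both calls of the full set were among them. In bulk tissue, fewer cells of a type and less RNA per cell cannot be told apart.

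Il20rb (chr9:100457719-100486788, minus strand) was the clearest difference. Its lowest, median and highest levels were 58.5, 69.2 and 72.5 CPM in the 6 Q175 libraries kept, against 80.5, 92.0 and 110.9 CPM in the 13 controls kept. The groups did not overlap, and they did not overlap with all 24 libraries either, since the highest Q175 library (F2) held 80.2 CPM and the lowest control (Q20 F1) 80.5 CPM. On average Q175 held 67.7 ± 5.13 CPM and the controls 94.0 ± 10.0 CPM (SD). The log2 difference was -0.50 ± 0.06 (SE, adjusted p = 0.000603, edgeR), with 6 of 6 Q175 libraries under the control median. With all 24 libraries it was -0.44 ± 0.07 (adjusted p = 0.0441, edgeR). When each of the 19 libraries was left out in turn, Il20rb was called in 19 of 19 fits, with differences from -0.53 to -0.47. Leaving out 1 of all 24 libraries kept its call in 7 of 24 fits. With the L number of the library name as a covariate the adjusted p was 0.0861, and with WT alone as controls it was 0.0797, with differences of -0.48 and -0.52.

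The other genes of the pathway were compared in the same fit. Of the 22 genes listed for IL-10 family cytokines, their receptors and their signalling, 15 were expressed well enough to be tested, and their median log2 difference was 0.00, as was that of all genes tested. Il20rb was the 1 gene called. Il10rb, a subunit shared by several receptors of the family, had -0.19 ± 0.11 (unadjusted p = 0.106), and the kinase gene Jak1 had 0.02 ± 0.03. Stat5b, a transcription factor gene downstream of many cytokine receptors, was the other member with an unadjusted p under 0.05, at 0.06 ± 0.03. At that limit 1 of the 15 was thus higher and 1 lower, against 3.29% and 3.99% of all genes tested. Il20ra, the gene of the receptor's partner subunit, did not pass the filter on low counts.

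Mcam (chr9:44134469-44142727, plus strand) had 40.7, 43.4 and 48.1 CPM as its lowest, median and highest levels in Q175, against 48.7, 51.7 and 57.2 CPM in the controls. The groups did not overlap in the libraries kept. The log2 difference was -0.24 ± 0.04 (adjusted p = 0.0306, edgeR), with 6 of 6 Q175 libraries under the control median. With all 24 libraries it was -0.23 ± 0.04 (adjusted p = 0.0449, edgeR), and 1 Q175 library (F2, 48.74 CPM) then lay above the lowest control (WT F1, 48.66 CPM). Leave-one-out fits kept the call in 12 of 19 cases for the smaller set and in 3 of 24 for the full set. The call was lost with WT alone (-0.23, adjusted p = 0.568) or Q20 alone as controls (-0.24, adjusted p = 0.152), and with the L number as a covariate (-0.21, adjusted p = 0.251). Mcam is known from endothelium and pericytes, and the summed level of 4 endothelial markers ranged from 109.4 to 123.6 CPM in the Q175 libraries, up to 132.0 CPM in WT and up to 137.7 CPM in Q20, with medians of 117.4 CPM in Q175, 113.4 CPM in WT and 119.7 CPM in Q20. Whether that level had a part in the difference was not tested.

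Cd70, the gene of a ligand of the tumour necrosis factor family that binds CD27, was expressed at a low level. It had 1.76, 1.96 and 2.40 CPM in Q175, against 1.03, 1.37 and 1.62 CPM in the controls, and the groups did not overlap. The log2 difference was 0.62 ± 0.10 (adjusted p = 0.0363, edgeR), with 6 of 6 Q175 libraries above the control median. The 5 libraries of low Htt held more of it whatever their genotype, with 3.05 and 3.42 CPM in Q175 F2 and F3, against 2.37, 3.33 and 2.43 CPM in WT F4, M1 and M2. With them the log2 difference was of like size but less precise, 0.57 ± 0.19 (adjusted p = 0.9999, edgeR). The call was also lost with WT alone as controls (0.56, adjusted p = 0.568) and with the L number as a covariate (0.54, adjusted p = 0.503). When each of the 19 libraries kept was left out in turn, Cd70 was called in 6 of 19 fits.

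Phlda1, which encodes a pleckstrin homology-like protein tied to growth factor signalling, had 5.68, 6.68 and 7.29 CPM in Q175, against 4.27, 4.95 and 5.77 CPM in the controls. The lowest Q175 library and the highest control overlapped. The log2 difference was 0.36 ± 0.06 (adjusted p = 0.0392, edgeR), with 6 of 6 Q175 libraries above the control median. The call was lost with all 24 libraries (0.30 ± 0.09, adjusted p = 0.9999, edgeR). Among those, the WT library M2 of low Htt held 9.25 CPM, and the highest Q175 library held 7.42 CPM. The call was kept in 4 of 19 fits that left out a library, and it was lost with WT alone as controls (0.33, adjusted p = 0.568) and with the L number as a covariate (0.29, adjusted p = 0.473). It was the only called gene of the 4 outside the later changes: the difference was 0.02 ± 0.10 at 6 months (adjusted p = 0.929) and 0.05 ± 0.10 at 10 months (adjusted p = 0.777).

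Ncald (chr15:37366175-37792570, minus strand) had 209.8, 214.9 and 229.7 CPM in Q175, against 178.0, 198.0 and 213.0 CPM in the controls. All 6 Q175 libraries lay above the control median, and 1 control, WT F2, lay within their range. The log2 difference was 0.15 ± 0.03 and missed the threshold (adjusted p = 0.0761, edgeR), and it was 0.15 ± 0.03 with all 24 libraries (adjusted p = 0.351). Of the 13 listed neuronal calcium sensors 11 were tested, and their median log2 difference was 0.02, against 0.00 over all genes. Kcnip4, a potassium channel-interacting member, had -0.12 ± 0.04 (unadjusted p = 0.0156), and no other sensor gene but Ncald reached an unadjusted p under 0.05. Of 16 further calcium-binding proteins tested, with a median of 0.01, none was called. Calb2 (calretinin, 0.12 ± 0.04), Calm3 (a calmodulin gene, 0.08 ± 0.03) and Necab1 (0.15 ± 0.06) were higher at an unadjusted p under 0.05. Efcab1 was lower (-1.24 ± 0.59), with 4 of 6 Q175 libraries under the control median. Its median level was only 0.53 CPM in Q175 and 0.60 CPM in the controls, with a highest control of 5.955 CPM. Over all genes tested, 3.29% were higher and 3.99% lower at that limit.

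**Figure D2:**
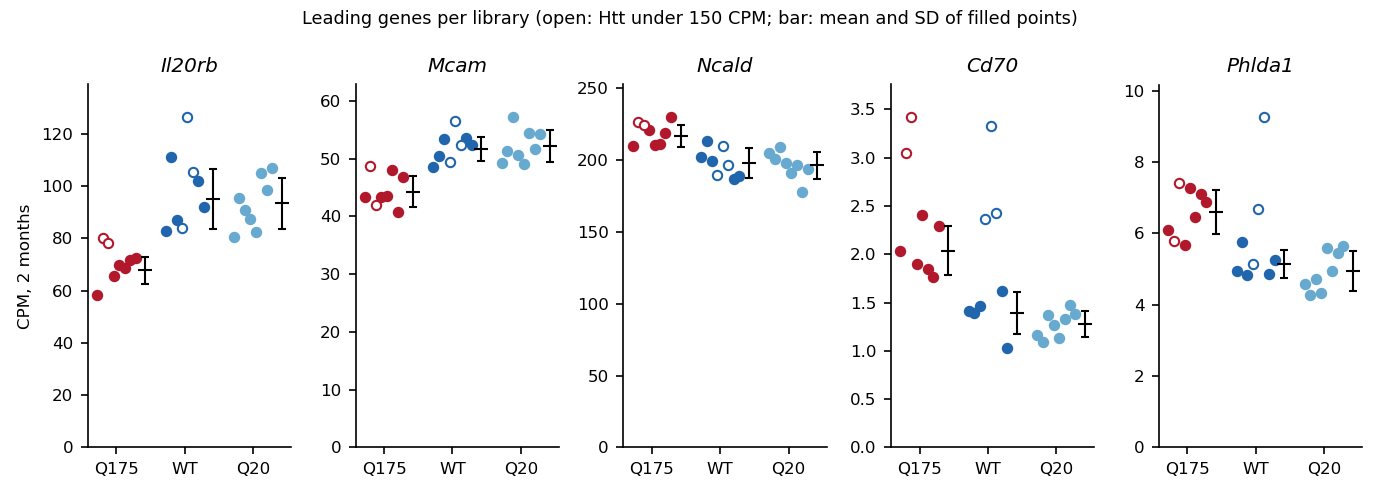
Levels in CPM of the 5 leading genes in each library of 2 months, with Q175 left, then WT and Q20. Open circles are the libraries of Htt under 150 CPM, and bars give the mean and SD of the filled circles; the 8 Q175 libraries lie below all 16 controls for Il20rb.

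In 6 genes of 15503 (0.0387%) the 6 Q175 libraries did not overlap the 13 controls, 3 above (0.0194%) and 3 below (0.0194%). They were Il20rb, Mcam and Cd70 with Pde3a (0.33), Magee1 (0.10) and Slc16a10 (-0.41), the last 3 named after their values were seen and none of them called. Slc16a10 was the 1 gene of the 6 that was not among the later changes with the later sign. Around Htt, where the flanking sequence of the knock-in line lies, 154 genes were tested within 10 Mb. Of these 18 (11.7%) had an unadjusted p under 0.05 at 2 months, against 7.28% of all genes tested, and none was called. At 10 months 37 (24%) were called, close to the 22.3% over all genes.

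The question of the comparison was which later Q175 changes are already there at 2 months. At 6 months 2753 of 15342 genes (17.9%) were called in Q175 against WT, 8.56% higher and 9.39% lower. At 10 months 3476 of 15576 (22.3%) were called in Q175 against WT and Q20, 11.2% higher and 11.1% lower. These counts differed with the controls, with 1128 genes at 6 months against WT and Q20 pooled and 1830 at 10 months against WT alone. The pooled controls of 6 months took in the Q20 library F3, with 71.4 CPM of Htt and a length index of -0.64. Whether its poor coverage had a part in the lower count was not tested. The later changes were taken as the 1642 genes called at both ages with the same sign and tested at 2 months, 838 higher and 804 lower in Q175. Other animals and other controls were used at each age, so the values of 2 months had no part in this choice.

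At 2 months 1293 of the 1642 genes (78.7%) already had the later sign in Q175, 638 of the 838 higher ones (76.1%) and 655 of the 804 lower ones (81.5%). The median log2 difference was 0.03 for the higher and -0.06 for the lower genes, against -0.003 over all genes tested, of which 48.1% were higher in Q175. With an unadjusted p under 0.05 and the later sign, 279 genes (17.0%) were visible, 115 of the higher (13.7%) and 164 of the lower (20.4%). These numbers include Htt, which chose the libraries and so has no test of its own. Without it 278 of 1641 later genes (16.9%) were visible, 163 of the 803 lower ones (20.3%). The background shares at 2 months were 3.29% and 3.99%, and 6.12% of the 13861 genes outside the later changes passed the same limit in either direction. With the opposite sign and an unadjusted p under 0.05 there were 2 genes, Serping1, a complement inhibitor, and Lhpp, a phosphatase. With all 24 libraries, 1353 genes (82.4%) had the later sign, 119 (7.25%) were visible and 0 were so with the opposite sign.

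The share visible at 2 months was higher with a larger size of the difference at 10 months. It was 9.64% of 871 genes with an absolute log2 difference under 0.25 at 10 months, 22.5% of 519 genes from 0.25 to 0.5, 30.1% of 206 genes from 0.5 to 1, and 34.8% of 46 genes of 1 or more. In that last class the median difference in the later direction was 0.21 in the animals of 2 months, 0.95 in those of 6 months and 1.29 in those of 10 months. Across the 1642 genes the differences of 2 and 10 months had a Pearson r of 0.66, and across all 15347 genes tested at both ages it was 0.42. Genes are not independent replicates, and within an age all genes share the same libraries.

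**Figure D3:**
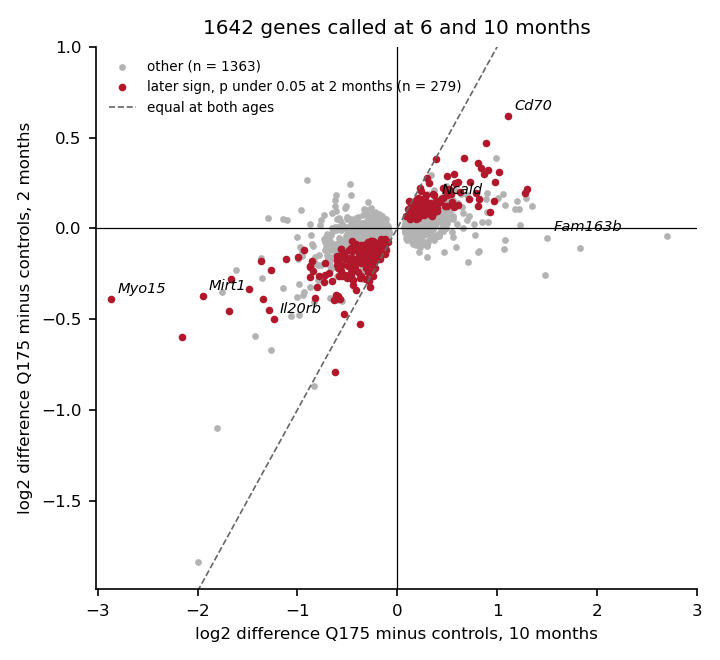
Log2 difference of Q175 from controls at 2 months (vertical axis, 19 libraries) against that at 10 months (horizontal axis) for the 1642 later genes, with the 279 that had the later sign and an unadjusted p under 0.05 in red. In 1633 of them the absolute difference is smaller at 2 months than at 10 months, and 1293 have the same sign at both ages.

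Among the later lower genes that were visible in both fits of 2 months, Mirt1, a long non-coding RNA, had 22.7, 27.6 and 30.6 CPM in Q175, against 29.0, 36.7 and 41.1 CPM in the controls. Its log2 difference was -0.37 ± 0.07 at 2 months (adjusted p = 0.0761, edgeR), -1.26 ± 0.07 at 6 months and -1.95 ± 0.06 at 10 months. Igfbp5, which encodes a binding protein of insulin-like growth factors, had 139.0, 153.3 and 170.1 CPM in Q175, against 158.1, 182.1 and 194.5 CPM in the controls, a difference of -0.21 ± 0.04 that became -0.87 at 10 months. Grm4, the gene of the metabotropic glutamate receptor at granule cell terminals, had 281.9, 342.6 and 387.2 CPM in Q175, against 332.0, 402.5 and 447.8 CPM in the controls. Its ranges overlapped, although 6 of 6 Q175 libraries lay under the control median, and its difference was -0.24 ± 0.06 at 2 months and -0.85 at 10 months. Of the rest by the same rule, Etnppl (an astrocyte enzyme of phospholipid metabolism), Nlrc3, Twsg1 (a modulator of bone morphogenetic proteins), Mybpc3 (a myosin-binding protein), Ccdc63, Nrep and Car9 (a carbonic anhydrase) had differences from -0.38 to -0.14 at 2 months and -1.66 to -0.21 at 10 months, and none passed the adjusted threshold at 2 months.

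Among the later higher genes, Synpr, the gene of the synaptic vesicle protein synaptoporin, had 93.0, 97.1 and 99.6 CPM in Q175, against 71.7, 88.2 and 95.8 CPM in the controls. Its difference was 0.16 ± 0.04 at 2 months and 0.82 at 10 months. Tunar, a long non-coding RNA, had 0.22 ± 0.04 at 2 months (adjusted p = 0.0877, edgeR) and 0.46 at 10 months. Kctd8, which encodes an auxiliary subunit of GABA-B receptors, Rgs9, a regulator of G protein signalling, Tnc, which encodes the matrix protein tenascin-C, Brinp2, Asic2 (an acid-sensing channel), Igsf10 and Galnt11 had 0.13 to 0.36 at 2 months and 0.12 to 1.30 at 10 months. None of these passed the adjusted threshold at 2 months either.

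Some of the firmest later changes were small at 2 months. Of the 24 later genes with the smallest p over both later ages, 12 in each direction, 19 had an unadjusted p under 0.05 and the later sign at 2 months. Among all later genes the share was 17.0%, and over all genes tested 3.29% were higher and 3.99% lower at that limit. Col12a1, a collagen gene, had 13.9, 14.5 and 16.5 CPM in Q175, against 10.1, 14.7 and 16.04 CPM in the controls, with a difference of 0.04 ± 0.07 at 2 months and 0.85 at 10 months. Fam163b had -0.05 ± 0.11 at 2 months, opposite in sign to 1.50 at 10 months. Adamts10, a metalloprotease gene, had -0.01 ± 0.04 and -0.61. Ccnd1, the gene of cyclin D1, had 0.09 ± 0.04 at 2 months and 0.93 at 10 months, while Myo15, an unconventional myosin gene, had -0.39 ± 0.11 and -2.86.

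The change of the Q175 difference with age was tested as the difference between 10 and 2 months with all 24 libraries of 2 months. It was called for 308 of 15938 genes (1.93%), and for 222 of the 1642 later genes, all 222 larger at 10 months. Without the libraries of low Htt it was called for 872 genes. The later genes were chosen partly on their values at 10 months, so that direction is a description. The difference of Il20rb was larger at 10 months by -0.81 ± 0.12 (adjusted p = 1.22e-05, edgeR), and that of Ncald by 0.24 ± 0.05 (adjusted p = 0.00115). For Mcam it was -0.17 ± 0.07 (adjusted p = 0.325) and for Cd70 0.54 ± 0.26 (adjusted p = 0.494), neither past the threshold. At 10 months Il20rb held 34.4 to 46.3 CPM in Q175, against 69.7 to 140.0 CPM in the controls, and Ncald 233.8 to 270.9 CPM, against 184.2 to 206.3 CPM.

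**Figure D4:**
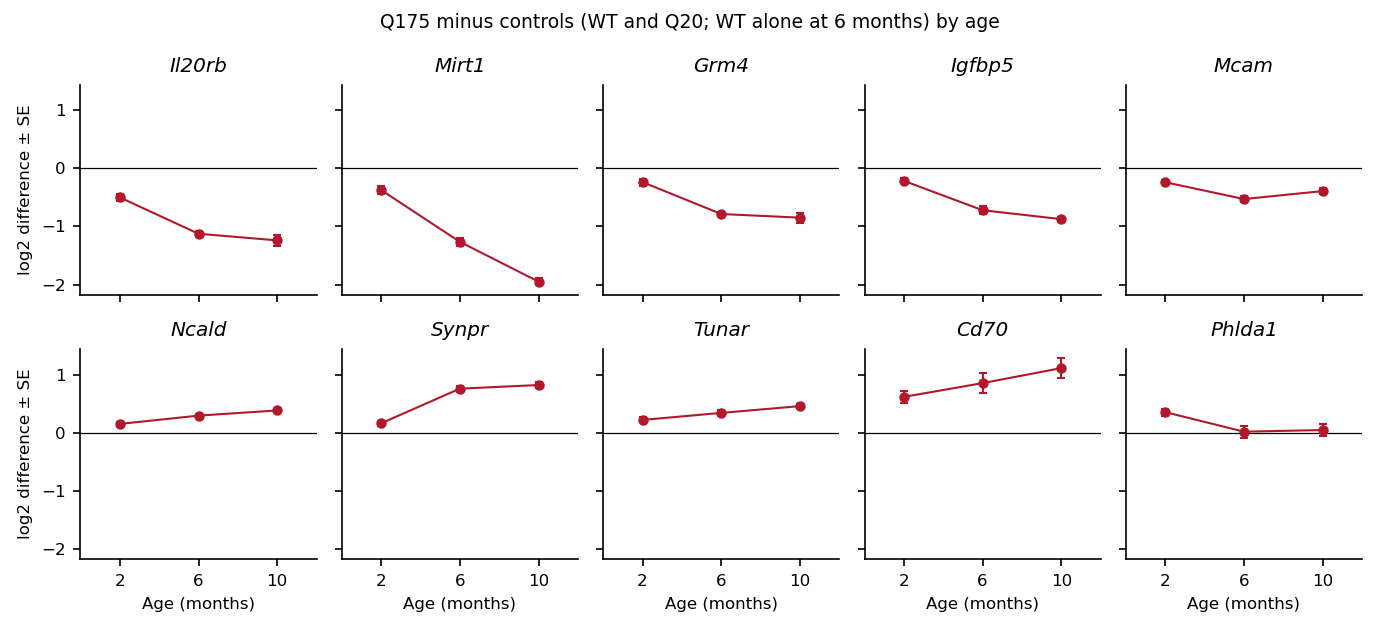
Log2 difference of Q175 from controls (points, with SE bars) at 2, 6 and 10 months for 10 genes, with other animals at each age and WT alone as the control at 6 months. Il20rb lies at -0.50 at 2 months and -1.24 at 10 months, and Phlda1 is the gene here that lies near 0 at both later ages.

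Gene groups with known roles in the tissue gave few calls at 2 months. The myelin and oligodendrocyte list had 17 members tested, of which 15 were called lower at 6 months and 15 at 10 months, where 9.39% and 11.1% of all genes tested were. At 2 months 6 of the 17 were lower at an unadjusted p under 0.05, against 3.99% of all genes, 0 were higher and 0 were called, with a median difference of -0.10, against -0.003 over all genes. Il33, the gene of an alarmin cytokine made by oligodendrocytes, had 28.8, 30.6 and 35.1 CPM in Q175, against 32.4, 36.8 and 50.9 CPM in the controls (-0.26 ± 0.08). Car2 (-0.21 ± 0.06), Mal (-0.14 ± 0.05), Mobp (-0.15 ± 0.06) and Tspan2 (-0.11 ± 0.05) were also among the lower ones, while Mbp had -0.04 ± 0.06 and Cnp 0.02 ± 0.04. The summed level of the list ranged from 5171 to 6128 CPM in the Q175 libraries kept, 5644 to 6295 CPM in WT and 5245 to 7423 CPM in Q20.

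Of 6 granule cell markers, 3 were lower in Q175 at an unadjusted p under 0.05 (Cbln3 at -0.12 ± 0.04, Neurod1 at -0.12 ± 0.05 and Fat2 at -0.14 ± 0.07). Pax6, a transcription factor gene, was higher at 0.09 ± 0.04, and Gabra6 had 0.02 ± 0.05. None of the 6 Purkinje cell markers reached that limit, with a median of 0.01 at 2 months, whereas 5 of 6 were called lower at 10 months, against 11.1% of all genes. The other lists are to be read against the 3.29% of all genes that were higher and the 3.99% that were lower at this limit. Markers of Bergmann glia and microglia gave 0 genes, and endothelium 1, Kdr (-0.19 ± 0.09). Of 16 immediate early genes Nab2, a corepressor of EGR factors, had -0.12 ± 0.05. Cholesterol synthesis gave 1 of 21 (Insig1 at -0.23 ± 0.08), glutamate and GABA receptors 1 higher and 1 lower of 18, huntingtin partners and targets 1 higher of 16 (Bdnf, a neurotrophin gene, at 0.24 ± 0.11), chaperones 1 lower of 15 (Hspb8 at -0.29 ± 0.11), and mismatch repair genes 0 of 10.

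Choroid plexus transcripts differed between single libraries more than between groups. The summed level of 6 markers ranged from 30.8 to 1168 CPM in the Q175 libraries kept, with a median of 122.2 CPM. It ranged from 29.3 to 5710 CPM in WT (median 46.8 CPM) and from 30.1 to 4301 CPM in Q20 (median 205.3 CPM). Their median log2 difference was -2.15, with Kl and Aqp1 lower at an unadjusted p under 0.05 and 0 called. With the mean level of these markers as a covariate, the difference of Il20rb was -0.52 and that of Mcam -0.24, and both were called. Cd70 and Phlda1 were not, with adjusted p-values of 0.0702 and 0.0761 (edgeR). Of the remaining markers of neighbouring tissue, 0 of 4 Hox genes and 1 of 3 pituitary genes were expressed well enough to be tested.

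Along the allelic series at 2 months, the 5 WT libraries kept averaged 95.0 ± 11.4 CPM of Il20rb, and the 8 Q20 libraries 93.3 ± 9.83 CPM (SD). Means of 89.1 ± 5.29 CPM were found for Q80, 83.6 ± 8.80 CPM for Q92, 88.9 ± 8.58 CPM for Q111, 86.8 ± 12.2 CPM for Q140 and 67.7 ± 5.13 CPM for Q175 (n = 5 to 7 each). From WT to Q140 the ranges of 1 SD around the means overlapped, and that of Q175 lay under all of them. Single libraries did overlap, since the lowest held 70.9 CPM in Q92 and 68.6 CPM in Q140, both under the highest Q175 library kept (72.5 CPM). For Ncald the means were 198.1 ± 10.6, 196.5 ± 9.44, 201.2 ± 7.79, 208.8 ± 11.1, 211.7 ± 10.9, 219.0 ± 9.97 and 216.7 ± 7.90 CPM in the same order, so that Q140 and Q175 did not differ beyond their spread. With CAG length as a number over all 56 libraries of 2 months, Ncald was the 1 gene called of 16011 (0.00625%), with a slope of 0.10 ± 0.02 on the log2 scale per 100 CAG (adjusted p = 0.0430, edgeR). The slope of Il20rb was -0.19 ± 0.05 (adjusted p = 0.320). No gene was called when Q175 was left out, nor when WT was.

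A score over the later genes was computed for each library as the mean log2 deviation of the 838 higher genes minus that of the 804 lower genes from the controls kept. It had a lowest, median and highest value of 0.09, 0.12 and 0.15 in the 6 Q175 libraries kept. In the controls kept the values were -0.05, -0.02 and 0.04 in WT (n = 5), and -0.10, 0.03 and 0.06 in Q20 (n = 8). Every Q175 library kept lay above every control kept. In the other lines it reached 0.07 in Q80, 0.04 in Q92, 0.06 in Q111 and 0.12 in Q140, the last in the library F1 only. The libraries of low Htt had 0.05 and -0.06 in Q175, against -0.27 to -0.15 in WT, and both Q175 libraries lay under the 6 kept.

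**Figure D5:**
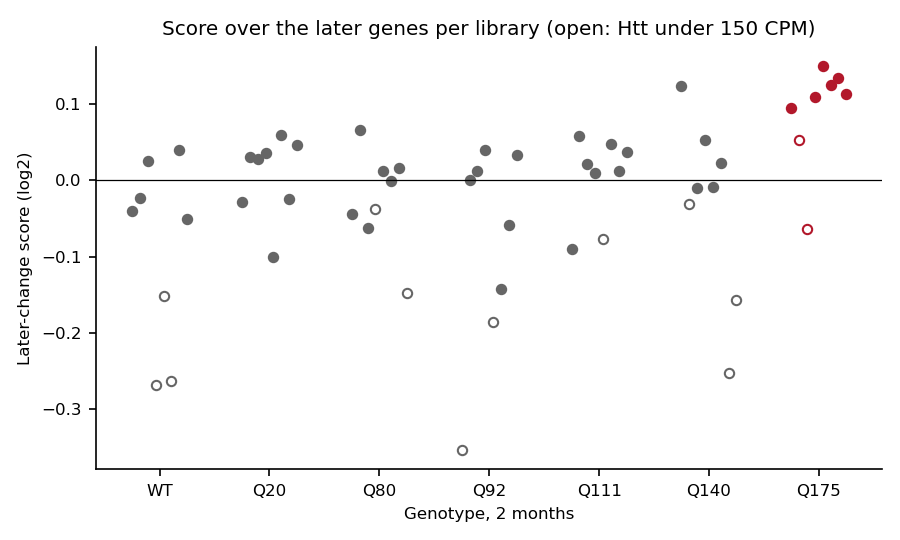
Score over the 1642 later genes (mean log2 deviation of the higher minus the lower genes) in each of the 56 libraries of 2 months, by genotype in order of CAG length, with open circles for libraries of Htt under 150 CPM. The 6 filled Q175 libraries lie between 0.09 and 0.15, above all filled WT and Q20 libraries.

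At 2 months edgeR called no gene between Q20 and WT, and none whose Q175 difference differed between males and females. Between Q20 and WT, with all 16 libraries, 0 of 15277 genes were called (edgeR; 2 by DESeq2), and 3497 (22.9%) had an unadjusted p under 0.05. Without the 3 WT libraries of low Htt that number was 118. For Il20rb the difference of Q20 from WT was -0.08 ± 0.08, for Mcam 0.00 ± 0.05, for Phlda1 -0.24 ± 0.12 and for Cd70 -0.56 ± 0.20 (unadjusted p = 0.0152) with all 16 libraries. With all 24 libraries, the Q175 difference in males minus that in females was called for 0 of 15503 genes (edgeR; 1 by DESeq2), and 635 (4.10%) had an unadjusted p under 0.05. Without the libraries of low Htt 0 were called and 417 had an unadjusted p under 0.05. With all 24 libraries, the Q175 difference in males minus that in females was -0.18 ± 0.14 for Il20rb and 0.06 ± 0.07 for Ncald. Males and females as such were not compared.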

How the data were processed

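Cerebellar mRNA of 166 mice was measured, and per the labels poly(A) RNA was sequenced on Illumina libraries. For 39179 Ensembl genes the authors deposited expected counts, which are estimates and were exactly whole in 83.3% of cells. A second deposited table holds FPKM of the same libraries, in which the authors scaled fragments by transcript length and by library total. CASAVA 1.8.2 is named by the submitters. Which aligner, counter and build made these values, and whether strand was used, is not given in the sources used here. Genes that share reads with a copy or an overlapping gene are therefore uncertain. Gene positions are those of GENCODE vM21 on GRCm38 for the same Ensembl IDs.

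Counts were rounded, and genes with at least 0.5 CPM in at least 8 libraries were tested in R 4.3.3 by edgeR 4.0.16 (quasi-likelihood F-test, TMM normalisation, two-sided, sex as a covariate, Benjamini-Hochberg adjustment over all genes tested, threshold 0.05). Standard errors are the absolute log2 difference over the square root of F. The fit without libraries of Htt under 150 CPM used the same 15503 genes and is the one meant wherever no number of libraries is given. In the slope fit the CAG length was 7 for WT. CPM levels are counts over the column sum. The length index used implied lengths (count over FPKM) over genes that averaged 5 CPM or more, Htt left out. DESeq2 1.42.0 and limma 3.58.1 on log2(FPKM + 0.1), other filters, factors and covariates, control groups and left-out libraries were tried as alternatives. Simulated counts were used to test the comparison of Q175 with controls at the youngest age, with no library left out, by edgeR, DESeq2 and limma. The other fits were not tested on simulated counts.

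The members, the 18 gene lists (205 genes) and the tests were chosen with earlier results of these data known. The genes named were Il20rb, Ncald and Htt; every gene called at 2 months; of the later genes, 12 per direction with the smallest p over both later ages, and 12 per direction that had the later sign and an unadjusted p under 0.05 in both fits of 2 months; and up to 4 per list with the smallest p under 0.05 at 2 months. All had a mean of at least 1 CPM. Genes with Gm or Rik symbols, Xist and Y-linked genes were left out, and a gene named outside these rules is given as such or as a list member. Some genes that the rules select are not reported here. No 2 libraries had identical counts, and 0 of the 24 went against the sex in their label.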

Additional observations from a re-analysis of the deposited data

Results flagged for a closer look

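The groups of 8 and the smaller groups of libraries kept were searched for a library far from the rest of its group, by its gap relative to the range of the group. Of 36 groups of values, 3 held such a library, where chance alone gives about 1 in 20 for independent groups. The groups share libraries, and their genes were named beforehand for this comparison or called in it, so this count is a description. The length index of the Q175 library F3 was -0.71, against -0.29 for the next lowest Q175 library. Phlda1 stood at 9.25 CPM in the WT library M2, a library of low Htt, with the other WT libraries at 6.69 CPM or less. Among the WT libraries kept, Htt stood at 195.3 CPM in F2, and the other 4 held 262.2 to 273.7 CPM. Htt chose the libraries kept, so its gap is given as a description and not as a test.

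The Q175 difference of Il20rb at 10 months minus that at 2 months was -0.81, and that of Ncald was 0.24. Both were past the threshold in edgeR's test of the change with age (adjusted p = 1.22e-05 and 0.00115), with other animals at each age.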

How the results depend on the processing

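With all 24 libraries, the 2 calls in Q175 became 1 with RLE factors, 0 without the filter on low counts, 7 with DESeq2, 0 with WT alone, 0 with Q20 alone as controls and 1 with all 2 month libraries in 1 fit. Covariates gave 0 (the L number), 17 (the length index) and 5 (the mean of choroid plexus markers), and limma on FPKM gave 0. Without the libraries of low Htt, the 4 calls became 1 without the filter, 20 with DESeq2, 0 with WT alone, 2 with Q20 alone, 1 with all 2 month libraries in 1 fit, 0 with the L number as a covariate and, with the length index, 9. They became 9 with a limit on the length index in place of Htt and 11 with an Htt limit of 200 CPM. Same-numbered libraries of different groups had deviations from their group means with a Pearson r over 0.1 in 12 of 24 pairs (-0.79 to 0.87), and in 11 of 14 pairs of the libraries kept (median 0.25, against 0.07 for other pairs). Same-numbered libraries were also of the same sex, which was not removed, while the other pairs included libraries of different sex. These values thus cannot show a pairing. Not every pair was over 0.1, so the samples were taken to share a number only. With the replicate number as a block, the counts were 0 of 2, 2 of 4 and, for the CAG slope, 0, and 246 later genes were visible against 279. Leaving out 1 library at a time gave 0 to 2 calls with all 24 libraries and 1 to 11 without those of low Htt. In the first case both calls stayed only without Q175 F2, Q20 M1 or WT F4. In the second the count was 11 without WT F2, 8 without Q20 M1, 3 to 5 without Q175 M4, Q20 F4, Q20 M4, WT F3, WT M3 or WT M4, and 1 or 2 without any other library. The later genes visible ranged from 217 to 325 (an alternative chosen after seeing the data), and they were 119 with all 24 libraries. Q175 at 6 months gave 1128 calls with WT and Q20 pooled against 2753, and at 10 months 1830 with WT alone against 3476. The change with age gave 872 calls without the libraries of low Htt against 308. DESeq2 called 2 genes between Q20 and WT and 1 gene for the Q175 difference in males minus that in females, against 0 each. For the CAG slope the 1 call became 4 with DESeq2, 5 without the libraries of low Htt, and 0 without Q175 or without WT. The 1 gene called without the filter was not Ncald. In the main comparisons of 6 and 10 months no library had Htt under 150 CPM, so leaving such libraries out changed nothing. The pooled controls of 6 months did hold such a library, Q20 F3. Differences turned round for Fam163b with WT alone (0.036), for Aqp1 with the choroid plexus covariate (0.055) and for Col12a1 with limma on FPKM (-0.067), none of them called. Where a count changed, the cause was not tested. Low levels limit Cd70 and Phlda1, at about 2 and 6 CPM.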
